A study of Mus musculus with 2 samples.

Results

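Oncostatin M and its relatives were followed through 10 genes of the interleukin-6 (IL-6) family and its signalling chain, all found by symbol among the 30084 genes of the deposited count table. They were the cytokine genes Osm, Lif and Il6, the receptor genes Osmr, Lifr, Il6ra, Il11ra1 and Il6st, and the signalling genes Stat3 and Socs3. The genes were taken from the pathway and not by their values. The tissue was epididymal fat of male mice on a C57BL/6J background, wild type or lacking Mincle, a C-type lectin receptor (gene Clec4e). Both genotypes received a high-fat diet for 15 weeks, and the sources used here do not give their ages. The stromal vascular fraction, which is what remains of digested fat once the adipocytes are removed, was stained with 4 hashtag antibodies, pooled and run as 1 transcript library (BD Rhapsody, TAS-Seq) with 1 hashtag library. The labels do not say which genotype, or how many mice, a hashtag stands for, so genotypes were not compared, no test was made, and Clec4e was not used to guess them. Values in 4 hashtags are given in the order A0309, A0310, A0311 and A0312; they show how stable a level was within the pool and are not replicates of a condition.

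Cytokines of this family share the signal-transducing chain gp130 (Il6st). Each binds it together with a chain of its own: oncostatin M mainly with its specific receptor (Osmr) in the mouse, LIF with Lifr, IL-6 with Il6ra and IL-11 with Il11ra1. The assembled receptor activates Janus kinases, which phosphorylate STAT3, and STAT3 induces Socs3, an inhibitor that binds gp130 and ends the signal. In fat tissue the family is known for signals from immune cells to stromal cells and for IL-6 made by the stroma itself.

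In the GRCm38 annotation (GENCODE vM21) Osm lies at chr11:4236420-4241026 and Lif at chr11:4257557-4272514, both on the plus strand and 16.5 kb apart. Osmr, at chr15:6813577-6874969 on the minus strand, and Lifr, at chr15:7090614-7197489 on the plus strand, are 215.6 kb apart on another chromosome. The other genes are at chr5:30013114-30019981 (Il6, plus), chr3:89864059-89913196 (Il6ra, minus), chr13:112464070-112510086 (Il6st, plus), chr4:41699989-41769474 (Il11ra1, plus), chr11:117966079-117970047 (Socs3, minus) and chr11:100885098-100939540 (Stat3, minus). The promoters of Socs3 and Il6 are shown because these 2 genes stood together in the fibroblast results below. Each run is the 250 bases before the start of the gene (RefSeq, GRCm38.p6), at chr11:117969367-117969616 on the minus strand for Socs3 and chr5:30012864-30013113 on the plus strand for Il6. The RefSeq start of Socs3 lies inside the GENCODE span given above, so the printed run does too. Bases before the GENCODE start of Socs3 were not searched. Capitals mark motif matches.
Socs3: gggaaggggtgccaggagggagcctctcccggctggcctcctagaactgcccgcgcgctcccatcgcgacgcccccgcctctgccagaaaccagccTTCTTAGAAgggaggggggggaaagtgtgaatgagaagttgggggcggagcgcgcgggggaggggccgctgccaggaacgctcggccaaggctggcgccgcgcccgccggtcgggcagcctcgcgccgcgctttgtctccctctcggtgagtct
Il6: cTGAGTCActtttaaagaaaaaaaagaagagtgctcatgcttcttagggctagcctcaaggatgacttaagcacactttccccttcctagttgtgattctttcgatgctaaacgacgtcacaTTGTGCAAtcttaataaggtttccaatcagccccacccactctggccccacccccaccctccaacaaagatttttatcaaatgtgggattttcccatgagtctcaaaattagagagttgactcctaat
Of the 10 genes 9 had an entry in the promoter table, and motifs were searched on both strands. The STAT-type motif TTCNNNGAA matched 1 of the 9 genes, Socs3 (TTCTTAGAA, from base -154 to -146 counted from the start). It was present in 8.13% of all 27025 genes in the promoter table, where a gene counts if any of its promoters matched. The stricter TTCCNGGAA matched 0 of 9 and 1.09% of all these genes. The remaining motifs were added after the levels were seen. The AP-1 motif TGANTCA matched Il6 (TGAGTCA, -249 to -243) and Lif (TGACTCA, -228 to -222), and 7.82% of all these genes. The C/EBP motif TTGNGCAA matched Il6 (TTGTGCAA, -128 to -121) and 2.99% of all these genes. No 2 matches overlapped. A match describes the letters and not a bound site.

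The table held 15741 cells and 651658017 counts, with a median of 34182 counts (6596 to 473807) per cell; 367 cells named as doublets by the authors and 182 cells failing the quality filter were left out, and 15192 were kept. The hashtags held 3288 to 4656 cells each, with median counts of 33023.5 to 35103. Clustering without the 10 genes, their pathway lists and the immediate early genes gave 8732 macrophage-like, 3986 fibroblast-like, 1137 endothelial-like, 404 T cell-like, 289 dendritic cell-like, 245 mural-like, 203 monocyte-like and 17 mesothelial-like cells, and 179 cells without a name. Sub-clusters whose leading genes belonged to another class held 550 of the fibroblast-like and 754 of the macrophage-like cells; results that changed without them are given with and without. Median counts were 40371 in macrophage-like, 36623.5 in fibroblast-like, 18589 in monocyte-like, 14563 in mural-like and 14025 in endothelial-like cells. Free RNA can put counts of a gene into cells that do not express it. Outside the sub-clusters led by another class, macrophage-like cells held Pdgfra and Col1a1, which mark fibroblasts, at 0.643% and 0.625% of the fibroblast-like level, and fibroblast-like cells held the macrophage genes Adgre1, C1qb, Csf1r and Mrc1 at 1.93% to 2.30% of the macrophage-like level. Levels are in CPM, a gene's summed counts scaled to a fixed total per group, so they compare 1 gene between groups and not 2 genes with each other. Intervals are 95% Poisson intervals for levels and exact 95% Clopper-Pearson intervals for shares of cells, and they cover counting error only.

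Among the cytokine genes, Osm was highest in clusters of immune cells and Il6 in stromal and vascular cells, and Lif was low in every lineage. Osm stood at 61.2, 44.3, 37.1 and 46.4 CPM in monocyte-like cells, with 45.6 in the pool. In macrophage-like cells it stood at 12, 10.6, 10.1 and 11.6 CPM, pool 11.05 (10.7 to 11.4). All monocyte-like values were above all macrophage-like values, although the monocyte-like pool fell between 18.3 and 26.4 CPM under 4 other ways of choosing or clustering the cells. T cell-like cells held 17.5, 12.1, 20.9 and 9.83 CPM and dendritic cell-like cells 7.54, 14.3, 6.68 and 5.83 CPM, both overlapping the macrophage-like range; the dendritic cell-like pool of 8.57 CPM was 2.30 to 2.53 CPM under 3 of those settings. The T cell-like cluster also held all 7 macrophage markers at 5 CPM or more, with a sum of 2753.7 CPM (2341.7 to 3305.8) against 7876.4 CPM in macrophage-like cells, and all 7 NK or innate lymphoid markers, with 1126.9 CPM (706.6 to 1861.4). Their part in the T cell-like value was not tested. Macrophage-like cells, which held 66.6% of all counts, gave 86.8% of the Osm counts, and monocyte-like cells gave 4.36% from 1.34% of the cells. Fibroblast-like cells stood at 1.75 CPM, and at 0.366 CPM without the sub-clusters led by another class. All 7 macrophage markers were at 5 CPM or more in both sets of cells, with a sum of 1006.3 CPM (680.8 to 1464.8) over all fibroblast-like cells and 244.8 CPM (217.5 to 259.0) without those sub-clusters. Shares of cells were taken after thinning each cell to 10000 counts. Shallower cells were left out: 344 macrophage-like, 24 monocyte-like, 44 dendritic cell-like, 181 T cell-like, 124 fibroblast-like, 294 endothelial-like and 49 mural-like cells. Thinned in this way, Osm had a count in 25.1% of monocyte-like cells (19.0% to 32.2%) and 7.67% of macrophage-like cells (7.11% to 8.26%). Fibroblast-like cells, which should lack it, had 0.932%, and 0 of the 196 mural-like cells left had a count, with an interval that reaches 1.86%; unthinned, 3 of 245 had one. Unthinned shares were 31.0% of monocyte-like and 16.0% of macrophage-like cells.

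Il6 stood at 245.1, 306.2, 233.8 and 236.5 CPM in fibroblast-like cells, pool 257.0. Mural-like cells held 90.6, 289.3, 155.6 and 140.7 CPM and endothelial-like cells 119.2, 152, 92.9 and 56.9 CPM. Fibroblast-like cells were above endothelial-like and mural-like cells in all hashtags. In A0310 the mural-like value was only just lower, with a log2 ratio of -0.082, and lay within the fibroblast-like range over hashtags. Mural-like cells also carried fibroblast markers, all 6 at 5 CPM or more, with a sum of 6439.2 CPM (3571.4 to 8033.8) against 36911.8 CPM in fibroblast-like cells; the part of these in the mural value was not tested. Levels in immune cells were 2.80 CPM in macrophage-like, 4.44 in monocyte-like, 9.96 in dendritic cell-like and 7.07 in T cell-like cells, and the monocyte-like level was 9.76 to 10.2 CPM under 3 other settings. Over the cells used for the free RNA shares above, the macrophage-like level was 0.795% of the fibroblast-like one. Fibroblast-like cells gave 89.3% of all Il6 counts from 26.2% of the cells. The counts were uneven among them: the 5% of cells with the most Il6 gave 46.2% of the fibroblast-like counts. Thinned shares were 35.2% of fibroblast-like, 23.0% of mural-like, 18.2% of endothelial-like and 2.24% of macrophage-like cells; the unthinned fibroblast-like share was 44.0%.

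Lif, the gene of leukaemia inhibitory factor, had 564 counts in 226 cells of the whole table. Fibroblast-like cells, with 65.9% of the 542 counts in the cells kept, stood at 2.44, 1.21, 3.65 and 1.57 CPM, pool 2.20. T cell-like cells had 3.23 CPM and dendritic cell-like cells 2.49 CPM in the pool, both with intervals that overlapped the fibroblast-like hashtags. Macrophage-like cells had 0.311 CPM, endothelial-like cells 0.142 CPM and mural-like cells no count. The thinned share was 1.61% in fibroblast-like and 0.310% in macrophage-like cells, so at this depth Lif could be described only as a low transcript.

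Osmr, the chain that gives specificity for oncostatin M, had nearly the same level in 3 lineages. It stood at 127.7, 140.2, 116.7 and 117.3 CPM in fibroblast-like cells, at 159.8, 116.3, 130.6 and 115.6 CPM in endothelial-like cells and at 113.2, 119.6, 109.4 and 110.5 CPM in mural-like cells. These 3 ranges overlapped. Within each hashtag mural-like cells were slightly below fibroblast-like cells, with log2 ratios of -0.228 to -0.085. Endothelial-like cells were above the other lineages in some hashtags and below them in others. Immune cells stood at 2.41 CPM (macrophage-like), 2.92 (T cell-like), 3.73 (dendritic cell-like) and 5.98 (monocyte-like). Fibroblast-like cells gave 80.5% of Osmr counts and endothelial-like cells 10.8%. Thinned shares were 53.1% of fibroblast-like, 45.2% of endothelial-like and 42.4% of mural-like cells, against 2.21% of macrophage-like cells; unthinned, 71.5% of fibroblast-like and 5.70% of macrophage-like cells had a count.

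Lifr, the LIF receptor chain, was highest in endothelial-like cells (83.5, 87.9, 85.9 and 80.8 CPM) and mural-like cells (61.3, 81.8, 62.2 and 87.6 CPM), whose ranges overlapped. Fibroblast-like cells followed at 48.1, 53.0, 44.4 and 45.5 CPM, with dendritic cell-like cells at 60.7, 49.9, 24.5 and 50.9 CPM spanning that range; their pool of 48.8 CPM was 29.5 to 32.4 CPM under 3 other settings. Macrophage-like cells stood at 13.7, 13, 12.3 and 12.5 CPM, below the fibroblast-like cells in every hashtag, and at 21.4 CPM when every cell weighed the same. That value covered large differences between macrophage states, described below.

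Il6ra, the IL-6 binding chain, had the opposite order. Monocyte-like cells stood at 213, 179.3, 139.5 and 186 CPM and dendritic cell-like cells at 141.4, 164.7, 100.2 and 109.2 CPM, with overlapping ranges. Macrophage-like cells followed at 71.9, 73.6, 75.8 and 79.9 CPM, below both in every hashtag. Fibroblast-like (30.6 CPM), mural-like (24.9 CPM) and endothelial-like cells (18.9 CPM) were lowest in the pool, and macrophage-like cells gave 80.8% of the counts. A count of Il6ra was found in 64.3% of thinned monocyte-like, 42.2% of macrophage-like and 7.95% of endothelial-like cells. The 3 lineages with the most Il6 were those with the least Il6ra. The endothelial-like level was 29.2 to 30.8 CPM under 3 other settings.

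Il11ra1, the IL-11 binding chain, stood at 201.2, 231.9, 213.3 and 204.5 CPM in fibroblast-like cells and at 81.9, 80.8, 81.9 and 85.1 CPM in macrophage-like cells, with no overlap. Mural-like cells had 67.3, monocyte-like 46.3, endothelial-like 34.2, dendritic cell-like 23.7 and T cell-like cells 29.2 CPM. Il11ra1 has a near-identical relative on the same chromosome, Il11ra2. The sources used here do not give how the authors assigned reads between them, so the counts of Il11ra1 are uncertain. Il6st, the shared chain, was present in all lineages. It stood at 409.5, 521.3, 536.9 and 460.6 CPM in endothelial-like cells, at 278.4, 322, 413.9 and 324.8 in mural-like cells and at 275.4, 291.9, 278.8 and 269.4 in fibroblast-like cells. Macrophage-like cells stood at 57.2, 71.4, 65.2 and 71.8 CPM, and the other 3 immune lineages at 54.4 to 69.1 CPM in the pool.

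Counts of both chains of a receptor in the same thinned cell followed these levels. Osmr and Il6st were found together in 44.7% of fibroblast-like, 35.9% of endothelial-like and 35.2% of mural-like cells, and in 0.846% of macrophage-like cells. The pair Il6ra and Il6st was found in 25.1% of monocyte-like, 16.7% of macrophage-like, 15.4% of fibroblast-like and 6.76% of endothelial-like cells. Il11ra1 and Il6st were found in 59.6% of fibroblast-like and 14.7% of macrophage-like cells. These shares depend on depth: without thinning the first pair was found in 67.8% of fibroblast-like cells.

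Stat3, the transcription factor, varied least in level between lineages. It stood at 157.4 to 212.1 CPM in the pool of every named lineage of at least 50 cells other than the macrophage-like one, where it was 76.3, 81.7, 88.8 and 79.5 CPM. Socs3, its feedback target, spread much further. Fibroblast-like cells stood at 998.2, 1108.4, 902.3 and 1040.5 CPM, mural-like cells at 426.6, 566.3, 513.8 and 658.4 CPM and endothelial-like cells at 353.1, 387.7, 332 and 290.2 CPM. These 3 lineages did not overlap. Monocyte-like (155.4), dendritic cell-like (154.3) and T cell-like cells (147) had similar pool levels, and macrophage-like cells were lowest at 80.1, 83.1, 75.6 and 83.2 CPM. Fibroblast-like cells gave 76.9% of all Socs3 counts.

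**Figure D1:**
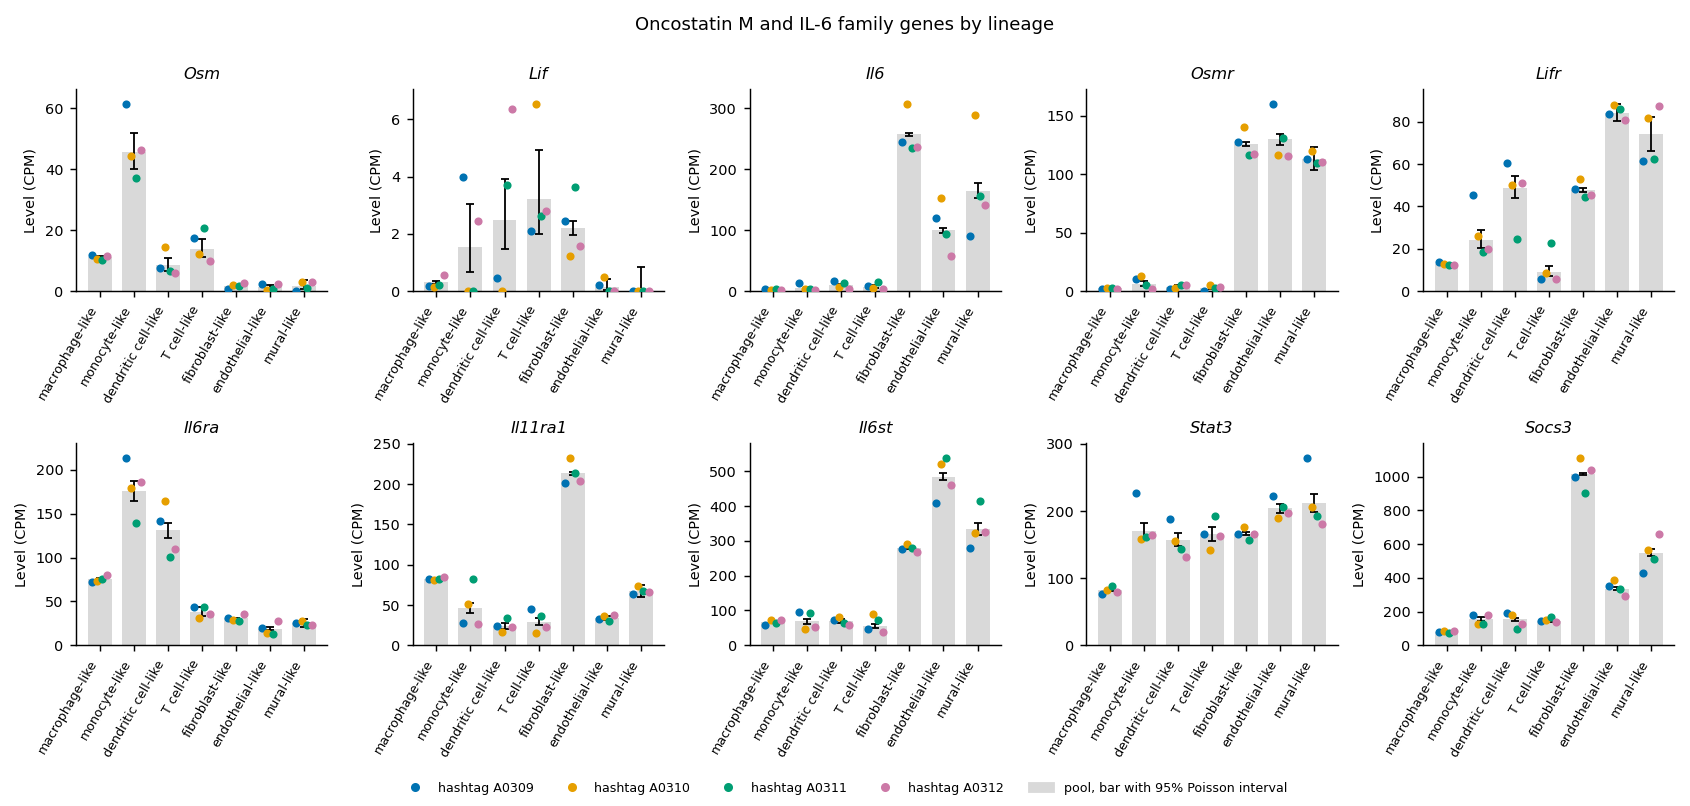
Level in CPM (y axis, linear, from 0) of the 10 genes in 7 lineages (x axis); grey bars are the pool with a 95% Poisson interval and points are the 4 hashtags. Osm is highest in monocyte-like cells (45.6 CPM), Osmr is between 112.9 and 129.8 CPM in the fibroblast-like, endothelial-like and mural-like columns and at most 5.98 CPM in the others, and Socs3 is highest in fibroblast-like cells (1014.7 CPM).

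Lineages and states were then compared by a size rule: a log2 ratio of CPM + 1 of at least 1 in size in the pool, and the same sign and at least that size in each hashtag where both groups had 20 or more cells, among genes at 5 CPM or more in either group. Between endothelial-like and fibroblast-like cells, 3 of the 8 family genes at that level met the rule, all lower in endothelial-like cells, beside 9.28% of all genes lower and 10.8% higher. Il11ra1 had a log2 ratio of -2.61 (hashtags -2.76 to -2.43), Socs3 of -1.60 (-1.84 to -1.44) and Il6 of -1.36 (-2.04 to -1.01). Osmr differed by 0.04 (-0.27 to 0.32), and Lifr (0.80) and Il6st (0.79) were higher by less than the rule asks. Il11ra1 met the rule under all settings tried, whereas Socs3 (-1.38) and Il6 (-1.22) did not with hashtags called from at least 75% of the tag counts, a rule that kept 1079 of 3986 fibroblast-like cells, and Il6 did not with a pseudocount of 5 CPM (-1.33) or with tag multiplets left out (-1.326), cells whose second hashtag held over 25% of their tag counts, a setting chosen after seeing the data. Between mural-like and fibroblast-like cells 1 of 8 met the rule, Il11ra1, lower in mural-like cells at -1.65 (-1.66 to -1.63), beside 4.83% of genes lower and 7.18% higher.

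The pathway around these genes was given by 4 further lists. Of 15 genes known to respond to STAT3 or oncostatin M, 10 were lower and 0 higher in endothelial-like than in fibroblast-like cells, with a list median of -1.56 against 0.25 over all genes. Among them were Timp1, an inhibitor of matrix metalloproteinases (15.6 against 588.3 CPM), and Ccl7, a monocyte-attracting chemokine (10.8 against 232.2 CPM). In mural-like cells 4 of the 15 were lower and 0 higher, with Timp1, Ccl7 and Ccl2 the largest. Of 12 genes of JAK-STAT signalling and its inhibitors, 1 was higher and 1 lower in endothelial-like cells, the lower one being Socs1, another feedback inhibitor (-2.82), and Gab1 was higher (2.24) and Socs1 lower (-1.38) in mural-like cells. A count of 1 of 12 each way is near the shares over all genes given above. Among other receptors Il2rg, the common gamma chain, was higher in endothelial-like cells (3.77) and in mural-like cells (2.58). The 10 immediate early genes, which respond to tissue digestion, summed to 14271.3 CPM in fibroblast-like, 15348.1 in mural-like and 9643.1 in endothelial-like cells, and 1 of 10 was called, lower in endothelial-like cells.

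The endothelial-like cells fell into a Selp Ackr1 cluster of 250 cells, with genes known from venules, and a Car4 Gpihbp1 cluster of 887 cells, with genes known from capillaries. The pair was compared after the levels were seen. Il6 stood at 326.2, 385.9, 264.9 and 161.3 CPM in the first and at 42.9, 49.0, 20.9 and 23.7 CPM in the second, without overlap. The Selp Ackr1 cluster thus gave 76.9% of the endothelial-like Il6 counts from 22.0% of the cells. Il6st stood at 922.8, 1036.7, 1093.8 and 976.9 CPM against 220.2, 294.4, 303.7 and 296.5 CPM, so the Selp Ackr1 cluster had the highest level of the shared receptor chain of the lineages, clusters and states described here. The 2 genes met the size rule, with log2 ratios of 3.09 (2.7 to 3.6) and 1.85 (1.72 to 2.06), 2 of 8 genes beside 2.92% of all genes higher and 2.49% lower. Lifr was 141.2 against 62.6 CPM (1.16, hashtags 0.94 to 1.29) and Socs3 520.7 against 264.6 CPM (0.97), both outside the rule, while Osmr was 124.4 against 131.9 CPM. At clustering resolution 2.0 Il6 (2.12) no longer met the rule in every hashtag.

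Thinned shares with Il6 were 39.5% in the Selp Ackr1 and 11.3% in the Car4 Gpihbp1 cluster, and shares with Lifr and Il6st together were 52.7% and 22.9%. Markers of mural cells moved with these results: 7 of 7 were at 5 CPM or more in the Selp Ackr1 cluster, with a sum of 3768.9 CPM (3080.5 to 4825.3), and 5 of 7 in the Car4 Gpihbp1 cluster, with 207.1 CPM (144.1 to 304.6), none of them at 0. Mural-like cells had 15226 CPM. The fibroblast marker sum was 661.2 (411.5 to 1061.6) against 264.2 CPM (178.0 to 383.9) and the immediate early sum 12317.6 (10263.7 to 15326) against 8623.6 CPM (7029.5 to 11294). The part of the mural, fibroblast and immediate early genes in the Il6 and Il6st levels was not tested. A separate Gja5 Sema3g cluster of 165 cells was left without a lineage name. It had Il6 at 60.5, 270.3, 303.5 and 34.6 CPM, the widest spread over hashtags among the vascular clusters. Osmr stood at 119.9 CPM and Il6st at 321.6 CPM there. Its mural marker sum was 6560.7 CPM (4698.5 to 10015.5) and its fibroblast marker sum 1879.6 CPM (1225.9 to 3929.3). The immediate early sum of this cluster was 16232.2 CPM (13260.1 to 19205.5). The part of these in its levels was not tested. Of the pathway genes, only Bcl6, a STAT3 target, was called between the endothelial clusters (1.48).

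**Figure D2:**
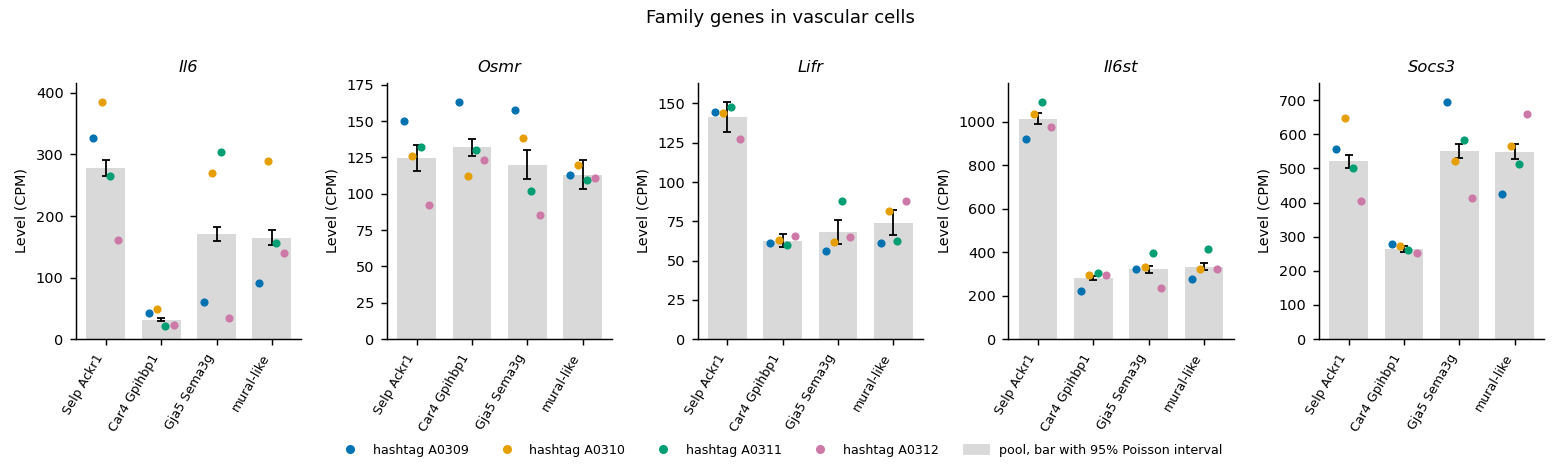
Level in CPM (y axis, linear, from 0) of 5 genes in 2 endothelial-like clusters, the Gja5 Sema3g cluster and mural-like cells (x axis); grey bars are the pool with a 95% Poisson interval, points the hashtags. Il6 and Il6st are higher in the Selp Ackr1 than in the Car4 Gpihbp1 cluster in all 4 hashtags, and Osmr is level across the groups.

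Monocyte-like cells differed from macrophage-like cells in 1 of 8 genes by the size rule, Osm at 1.95 (1.78 to 2.26), beside 3.54% of all genes higher and 0.936% lower. The call rested on which cells were named monocyte-like: the log2 ratio was 1.22 with the 75% tag rule, 0.70 and 0.89 at clustering resolutions 0.5 and 2.0, and 1.15 without the filter on cells, and in these it no longer met the rule. Il6ra (1.20), Stat3 (1.06) and Osmr (1.04, hashtags -0.34 to 1.95) reached the size in the pool and not in every hashtag. Macrophage markers, 7 of 7 at 5 CPM or more, summed to 6993.1 CPM (3959.8 to 8009.3) in monocyte-like and 7876.4 CPM in macrophage-like cells. Neutrophil markers, 3 of 4 at 5 CPM or more, summed to 182.6 CPM (69.4 to 332.9) in monocyte-like and 20.7 CPM in macrophage-like cells. The part of these markers was not tested. Of the STAT3 and oncostatin M list 3 of 14 were higher and 0 lower, namely Fosl2 (1.70), Cebpd (1.49) and Cebpb (1.45), transcription factors of the AP-1 and C/EBP families. The median over all 15 listed genes, with any under 5 CPM, was 0.60, against 0.03 over all genes at 5 CPM or more. Socs1 (1.95) of the JAK-STAT list, where 2 of 11 genes were higher and 0 lower, the receptor genes Il10ra (1.58) and Il2rg (1.502), and the ligand gene Il27 (14.5 against 0.719 CPM, 3.17) were also higher.

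The fibroblast-like cells held 5 states with enough cells to describe, and the receptors separated 2 of them. Dpp4 progenitor-like cells (372), the kind known as early adipose progenitors, were set against preadipocyte-like cells (246), which are further committed. Osmr stood at 54.9, 60.6, 62.5 and 64.0 CPM in the progenitor-like and 225.2, 230.1, 182.4 and 187.7 CPM in the preadipocyte-like cells. Lifr stood at 15.5, 24.7, 13.3 and 8.49 against 123.2, 94.8, 86.7 and 122.9 CPM, and Il11ra1 at 84.8, 106.2, 86.5 and 101.9 against 311.7, 339.5, 279.6 and 307.2 CPM. Thus 3 ligand-binding chains were lower in the progenitor-like cells in every hashtag. Il6ra went the other way, at 48.3, 54.1, 39.5 and 64.6 against 21.2, 21.9, 18.1 and 10.2 CPM, while Il6st was 269.1 against 326.6 CPM.

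In log2 ratios of progenitor-like over preadipocyte-like cells these were -1.75 (-2.02 to -1.53) for Osmr, -2.65 (-3.71 to -1.90) for Lifr, -1.71 (-1.87 to -1.58) for Il11ra1 and 1.498 (1.084 to 2.546) for Il6ra. So 4 of 9 genes met the rule, 3 of them lower beside 3.77% of all genes lower, and 1 higher beside 3.14% higher. With the 75% tag rule Osmr (-1.13), Il11ra1 (-1.08) and Lifr (-1.48) kept their sign and did not meet the rule in every hashtag, and at resolution 0.5 neither did Osmr (-1.01), Il11ra1 (-0.89) and Il6ra (1.07). Il6ra was also lost with a pseudocount of 5 CPM (1.32), the mean over cells (1.395) and tag multiplets left out (1.64). Osmr and Il6st were found together in 66.0% of thinned preadipocyte-like and 28.9% of progenitor-like cells, and Lifr and Il6st in 43.0% and 10.2%. Median counts per cell were close (36768.5 progenitor-like, 37696.5 preadipocyte-like), and immediate early sums were 11225 and 12594.9 CPM. None of the 15 STAT3 and oncostatin M genes and none of the 12 JAK-STAT genes was called. Clcf1, a cytokine gene of the family, was 0.431 against 8.21 CPM (-2.69) and Cntfr, the receptor chain for ciliary neurotrophic factor, 0.646 against 5.23 CPM (-1.92).

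Il6 and Socs3 were highest in a different state. The Agt Rgs16 Hp fibroblasts (587), named from a short marker list that begins with these genes, had Il6 at 724.5, 777.4, 598.4 and 573.4 CPM, above every hashtag of the other 4 states, where the highest value was 368.6 CPM. Il6 was 1 of the 10 leading genes of this sub-cluster. Their Socs3 stood at 1957.7, 2023, 1787.1 and 2038.5 CPM. An unnamed sub-cluster of 536 fibroblast-like cells came next, with Il6 at 403.8 and Socs3 at 1682.3 CPM. The Agt Rgs16 Hp fibroblasts gave 32.5% of the fibroblast-like Il6 counts from 14.7% of the cells, and 58.4% of their thinned cells had an Il6 count. Against all other fibroblast-like cells the log2 ratios were 1.77 (1.57 to 2.04) for Il6 and 1.15 (1.07 to 1.19) for Socs3, 2 of 8 genes beside 0.475% of all genes higher and 2.97% lower. A state against its own lineage is a description and no test, although neither gene was used to form the clusters.

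The immediate early genes were also highest in this state, with a sum of 23843.7 CPM (22795.2 to 24704.6) against 11225 to 13971.1 CPM in the other 4 states and 21183 CPM in the unnamed sub-cluster, and Atf3 (1.22), Nr4a1 (1.16) and Zfp36 (1.10) were called. Over the 10 fibroblast-like sub-clusters of at least 50 cells not led by another class, Pearson's r of log2 levels with the immediate early sum was 0.90 for Il6, 0.91 for Socs3 and 0.11 for Osmr; sub-clusters share 1 library and are not replicates. The part of the immediate early genes in the Il6 and Socs3 levels was not tested. Of the STAT3 and oncostatin M list Saa3, an acute phase protein (1.86), Myc (1.26) and Fosl2 (1.20) were higher and none lower, with a list median of 0.95 against -0.09 over all genes. The call of Il6 ended at resolution 2.0 (0.61), where the state was drawn differently, and that of Socs3 there (0.55) and under 4 other settings (0.99 to 1.07).

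**Figure D3:**
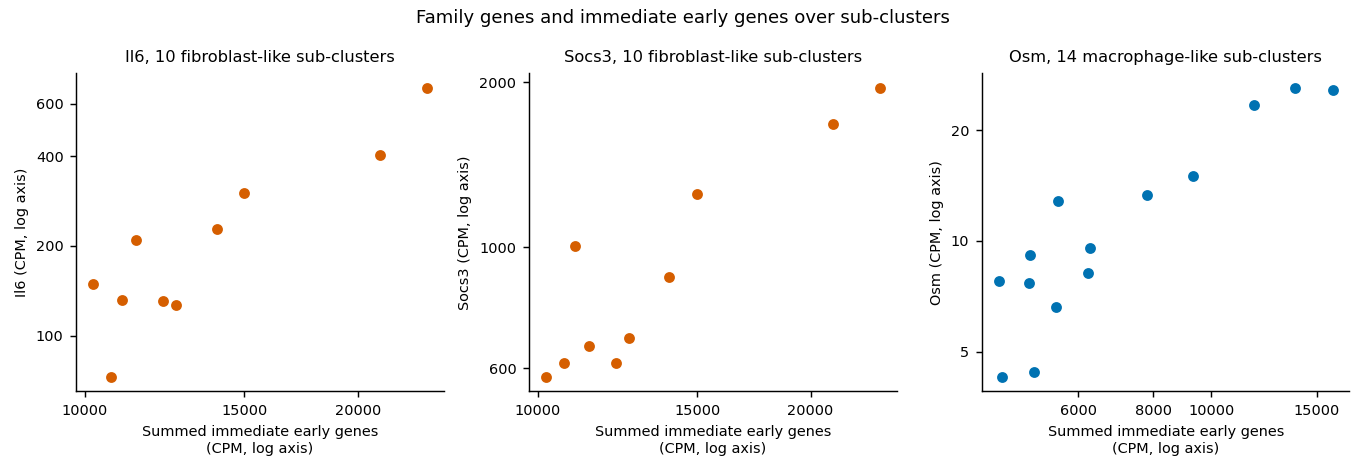
Level of Il6 and Socs3 in 10 fibroblast-like sub-clusters and of Osm in 14 macrophage-like sub-clusters (y axes, CPM, log) against the summed level of 10 immediate early genes (x axes, CPM, log); each point is 1 sub-cluster. The highest points in the fibroblast panels are the Agt Rgs16 Hp state, at 678.8 CPM of Il6 and 1956.3 CPM of Socs3.

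The F3 Clec11a Chrdl1 fibroblasts (133) had the highest Il6st of the 5 states, 535.4, 451, 523.6 and 450.9 CPM, without overlap. Their Il11ra1 level, 346.5 CPM in the pool, overlapped that of preadipocyte-like cells over hashtags, and 80.2% of their thinned cells had counts of both. Their Lif level was 3.69, 0, 22.1 and 3.44 CPM, so the pool value of 8.94 CPM rested on hashtag A0311. Dpp4 progenitor-like cells had Lif at 6.38, 5.59, 6.80 and 0.653 CPM and preadipocyte-like cells at 0.718 CPM in the pool. The activated-like fibroblasts (101) had the highest pool level of Stat3 among the 5, 236.2 CPM. By the size rule 0 of 9 family genes differed in the F3 Clec11a Chrdl1 state, beside 1.17% of genes higher and 2.56% lower, and 0 of 8 in the activated-like state, beside 1.18% higher and 3.82% lower. In the first state Cish, a STAT5 feedback inhibitor, was lower (-1.98). In the activated-like state Timp1 (2383.7 against 539.5 CPM, 2.14), Ccl2 (1.92) and Jak2 (1.66) were higher and Socs1 lower (-1.62). No cell of the activated-like state had an Osm count, with an interval that reaches 0.858 CPM.

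**Figure D4:**
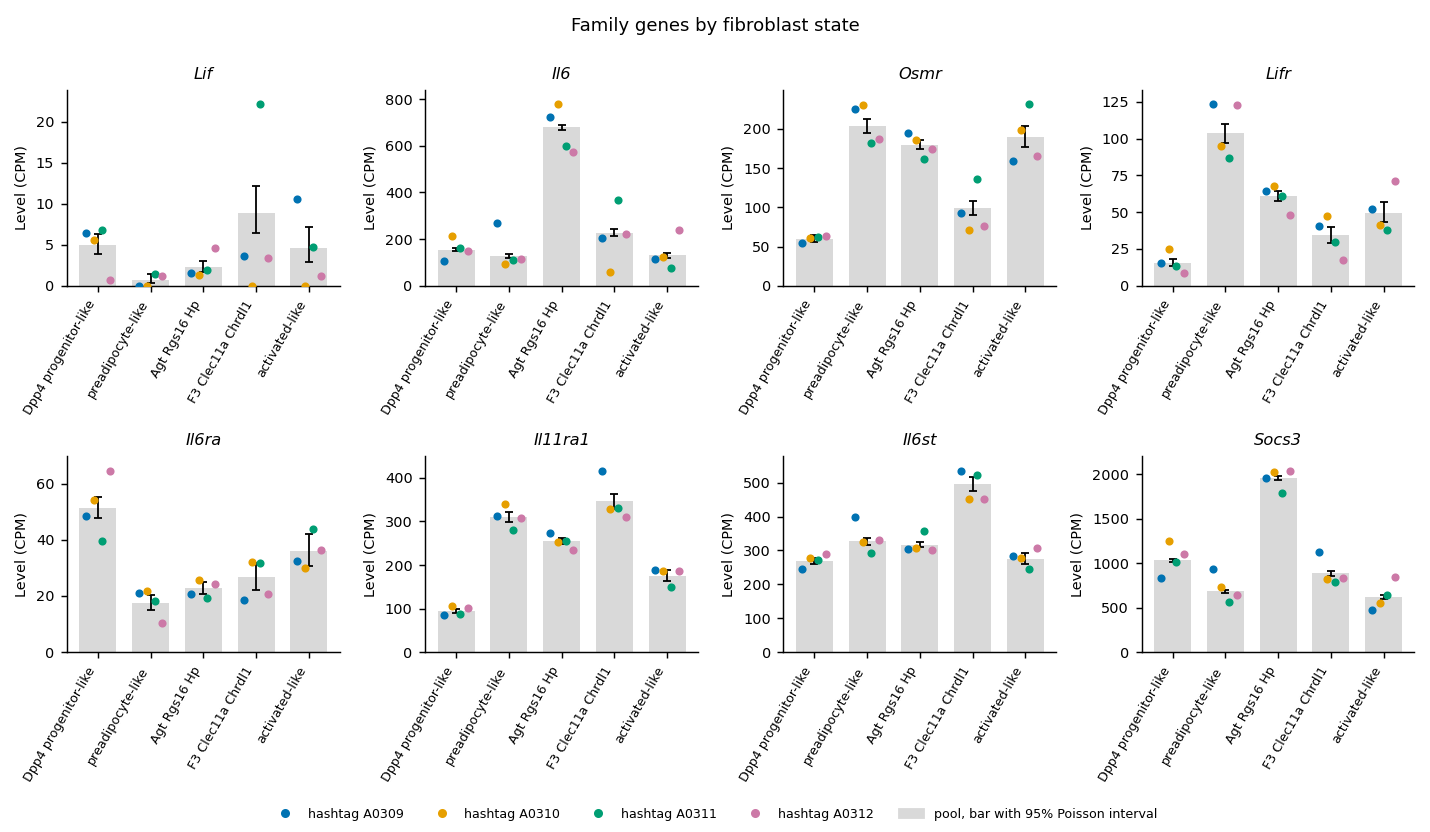
Level in CPM (y axis, linear, from 0) of 8 genes in 5 fibroblast-like states (x axis); grey bars are the pool with a 95% Poisson interval, points the hashtags. Osmr, Lifr and Il11ra1 are lower and Il6ra higher in Dpp4 progenitor-like than in preadipocyte-like cells in all 4 hashtags, and Il6 and Socs3 are highest in the Agt Rgs16 Hp state.

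Macrophage states differed in the ligand, the receptors and the feedback gene. Resident-like macrophages (189), the kind known to live along vessels in fat, were set against lipid-associated-like macrophages (1357), the kind known to gather around dying adipocytes in obesity. Osm stood at 27.7, 14.6, 23.5 and 34.9 CPM in resident-like and 5.20, 5.95, 4.05 and 4.21 CPM in lipid-associated-like cells. Lifr stood at 92.5, 79.8, 95.1 and 66.5 CPM against 4.45, 5.39, 4.22 and 2.53 CPM, and the resident-like values spanned those of endothelial-like cells. Il6ra was at 135.5, 144.9, 93.2 and 142 against 33.2, 42.0, 37.1 and 35.6 CPM, and Socs3 at 397.1, 287.6, 370.8 and 312.4 against 38.5, 38.6, 33.8 and 34.1 CPM. Il11ra1 was the reverse, at 22.6, 22.5, 38.6 and 43.8 against 128.9, 118.1, 126.7 and 130.6 CPM. None of these 5 genes overlapped between the states.

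In log2 ratios of lipid-associated-like over resident-like cells these were -2.21 (-2.79 to -1.17) for Osm, -4.05 (-4.26 to -3.66) for Lifr, -1.77 (-1.996 to -1.305) for Il6ra, -3.23 (-3.42 to -2.87) for Socs3 and 1.94 (1.56 to 2.46) for Il11ra1. Of 8 genes 4 were thus lower, beside 5.64% of all genes, and 1 higher, beside 2.92%. The median over all 10 family genes, with any under 5 CPM, was -1.24, against -0.18 over all genes at 5 CPM or more. Lifr, Socs3 and Il11ra1 met the rule under every setting tried; Osm did not under 5, among them the 75% tag rule (-1.91) and a pseudocount of 5 CPM (-1.66), and Il6ra did not at resolution 0.5 (-0.94) or without the cell filter (-1.43). With equal depth per cell, 42.5% of resident-like and 4.47% of lipid-associated-like cells had a Lifr count, and 20.6% and 1.62% had Lifr and Il6st together. Of the STAT3 and oncostatin M list 4 of 14 were lower, with Ccl7 (409.8 CPM resident-like, 16.6 lipid-associated-like) and Cebpd (105.1, 10.9) the largest. Vegfa, the vascular growth factor, was higher (2.63 resident-like, 26.5 lipid-associated-like). The median over all 15 listed genes, with any under 5 CPM, was -0.91.

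The immediate early sum was 13773.5 CPM (11296.9 to 15527.9) in resident-like and 4713 CPM (4442.1 to 4901.9) in lipid-associated-like cells, with 7 of 10 genes called lower in the latter. Summed monocyte markers were also higher in resident-like cells, 2043.3 (1254.3 to 2676.6) against 170.6 CPM. Of the 7 markers, 4 against 2 were at 5 CPM or more, and 1 was at 0 in each. One of them, F13a1, was also among the 10 leading genes of the resident-like sub-cluster. Median counts per cell were 21502 and 65761. The part of these in the results was not tested. Over 14 macrophage-like sub-clusters, r with the immediate early sum was 0.91 for Osm, 0.91 for Socs3, 0.68 for Lifr and -0.76 for Il11ra1.

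MHC class II high macrophages (2249), taken as a whole, resembled the resident-like ones in direction. Osm stood at 17.0, 16.0, 19.3 and 24.1 CPM, Lifr at 37.5, 38.3, 37.2 and 37.3, Il6ra at 155.8, 157.6, 159.2 and 169.5 and Socs3 at 204.5, 215.9, 199.2 and 203.7 CPM. Against all other macrophage-like cells Lifr (2.04, 1.73 to 2.24), Socs3 (1.79, 1.67 to 1.88) and Il6ra (1.41, 1.34 to 1.47) were higher and Il11ra1 lower (-1.08, -1.16 to -1.02), 4 of 7 genes, beside 2.52% of all genes higher and 3.35% lower. Osm reached 1.02 in the pool and 0.54 to 1.34 in the hashtags, so it was not called. The call of Il11ra1 was marginal and ended under 4 settings (-1.02 to -0.94). The immediate early sum was 12455.9 CPM, and 4 of the 10 genes were called higher. The state joined unlike sub-clusters. In order of 1249, 272 and 728 cells, Osm was 25.8, 23.5 and 6.62 CPM and Socs3 273.8, 139.5 and 94.5 CPM. Lifr was 37.9, 18.5 and 46.3 CPM and Il6ra 172.7, 92.1 and 175.7 CPM. Their immediate early sums were 15932, 11787.6 and 5519.4 CPM, and the part of these in the levels was not tested. Ebi3, a subunit shared by IL-27 and IL-35 (1.17), Il10ra (1.63), Gab1 (1.54) and Bcl3 (1.51) were the called genes of the other lists. The Pgm5 Fgf13 Hspb7 macrophages (520), of which hashtag A0309 gave fewer than 20 cells, stood near the lipid-associated-like ones, with Osm at 8.18 CPM and Lifr at 4.45 CPM.

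**Figure D5:**
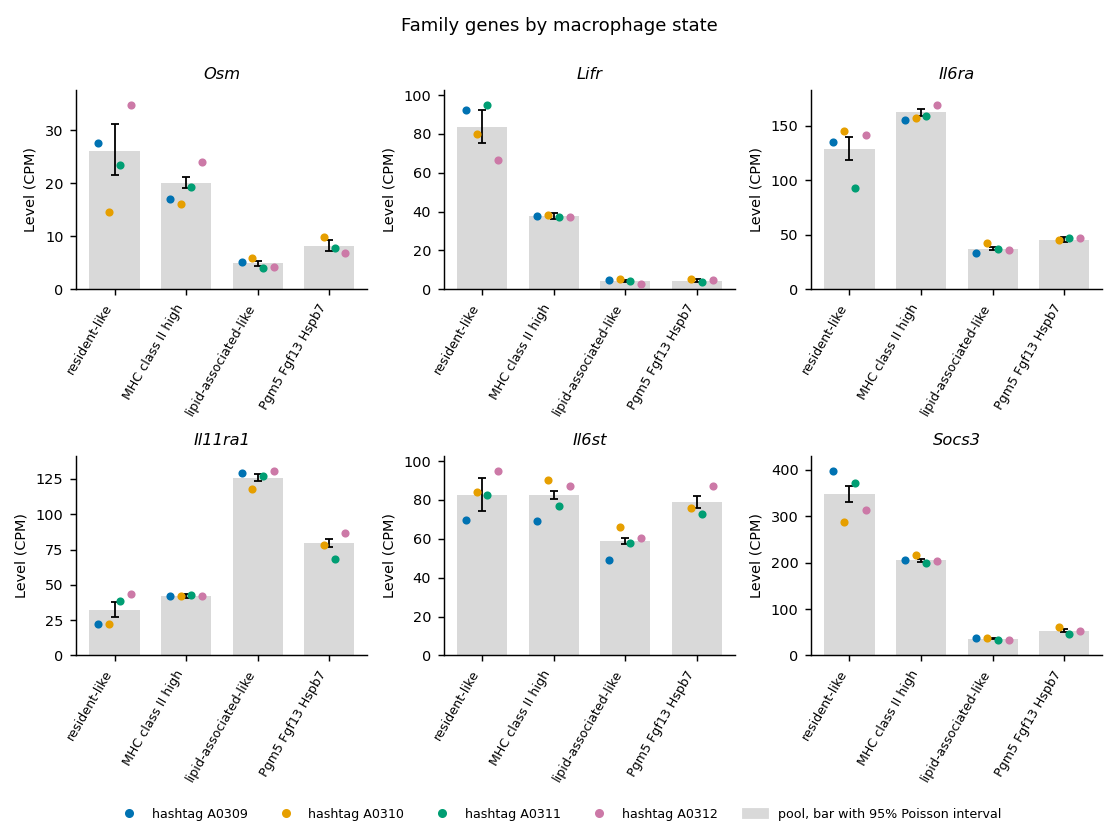
Level in CPM (y axis, linear, from 0) of 6 genes in 4 macrophage-like states (x axis); grey bars are the pool with a 95% Poisson interval, points the hashtags, with A0309 not drawn for the Pgm5 Fgf13 Hspb7 state. Lifr, Il6ra and Socs3 are high in the resident-like and MHC class II high states and low in the other 2, and Il11ra1 is the reverse.

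Over 35 groups of at least 50 cells, the genes whose log2 levels were most like a member's, among 15487 genes, described which cells it followed; the groups share 1 library, and r is given without a test. For Osm these were 5430427O19Rik (r of 0.96), the IL-10 receptor gene Il10ra (0.95) and Gpr65 (0.95). For Osmr they included Nfib (0.99) and Sparcl1 (0.98). For Il6 they were Foxc1, Cebpd and Ghr (0.97 each), and for Socs3 Cebpd (0.97), Id3 (0.95) and Il6 (0.95). Lif had no gene above Adamts6 (0.76) and Traf3 (0.75). Among the members, r was -0.85 for Osm with Osmr, 0.95 for Osmr with Il6 and 0.80 for Osm with Il6ra. Most of the groups were macrophage-like or fibroblast-like sub-clusters, so these r largely restate the difference between those lineages. Among fibroblast-like sub-clusters not led by another class, Osmr was highest in the preadipocyte-like one (204.0 CPM), where Il6 was 127.0 CPM. There Il6 was highest in the Agt Rgs16 Hp one (678.8 CPM), where Osmr was 180.0 CPM.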

How the data were processed

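Counts per gene and cell and tag counts per hashtag were deposited by the authors, as 1 table for the transcript and 1 for the hashtag library; both held the same 15741 cells. The submitters' processing notes name cutadapt 3.4, Bowtie2 2.4.2, R 3.6.3 and R 4.1.2 and the build GRCm38, without roles; the sources used here do not tell reads from molecules. In the files 68 leading genes had their low values set to 0, none of them a family gene. Cells took the hashtag in their deposited name; the authors' 367 doublets were left out and no doublet caller was run. Cells with at least 200 genes and at most 25% mitochondrial counts were kept, clustered with scanpy 1.11.5 (2000 variable genes, 30 principal components, 20 neighbours, Leiden resolution 1.0, seed 1) and named where 3 or more markers were each detected in 25% of cells or more. Counts were summed per group and scaled to CPM, with a pseudocount of 1 for log2 ratios. The text names all 10 family genes and, per list and comparison, up to 3 called genes with the largest ratio at 5 CPM or more; a few genes these rules pick are not reported here. The calling code was tested on simulated data. Members and lists were chosen with earlier results of these data known. Python 3.11.15, numpy 2.4.6, scipy 1.17.1 and pandas 2.3.3 were used.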

Additional observations from a re-analysis of the deposited data

Results flagged for a closer look

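Of 55 lineage levels examined over the 4 hashtags, 3 had 1 hashtag far from the other 3; chance gives about 1 in 20. Il6 in fibroblast-like cells was highest in A0310, at 306.2 CPM against 233.8 CPM in the lowest hashtag. Stat3 in monocyte-like cells was highest in A0309, at 226.3 CPM against 157.7 CPM in the lowest. Lifr in T cell-like cells was highest in A0311, at 22.6 CPM against 5.59 CPM in the lowest. The hashtags have no known genotype, and no reason for these values was tested.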

How the results depend on the processing

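No paired analysis was possible because no label gives replicates or the genotype of a hashtag. Of the alternative values, 707 levels moved by less than the spread over hashtags and 123 by more; 1376 log2 ratios kept their side of the size rule, 19 gained it, 35 lost it, and none changed sign while called. The number of family genes called changed as follows. With the 75% tag rule it was 1 between endothelial-like and fibroblast-like cells (main value 3), 2 between monocyte-like and macrophage-like cells (1), 1 between Dpp4 progenitor-like and preadipocyte-like cells (4) and 4 between the endothelial clusters (2). For monocyte-like cells it was 2 with the mean over cells and with the top 5% of cells by counts left out. For the Agt Rgs16 Hp state (2) it was 0 at resolution 2.0 and 1 with the mean over cells, without the cell filter, without sub-clusters led by another class, and without the top 5%. It was 1 for Dpp4 progenitor-like cells at resolution 0.5, 2 for mural-like cells (1) without the filter on low levels, and 1 for the F3 Clec11a Chrdl1 state (0) with tag multiplets left out, a setting chosen after seeing the data. Leaving out 1 hashtag at a time gave 1 to 2 for monocyte-like cells (2 without A0311) and 0 to 1 for the activated-like state (1 without A0312), and also 4 to 5 for Dpp4 progenitor-like cells and 2 to 3 for the endothelial clusters. No value came from the 75% rule for the Agt Rgs16 Hp, F3 Clec11a Chrdl1 and activated-like states, from resolution 0.5 for the endothelial clusters, the activated-like state and dendritic cell-like levels, or from resolution 2.0 and the missing cell filter for the Dpp4 comparison. Depth limits what can be said of Lif (564 counts) and of Osm outside immune cells.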
